A study of Mus musculus with 3 samples.

Results

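The genes described here are 9 chromosome X genes of the extracellular matrix and cell surface of mesenchymal cells: Timp1, Bgn, Srpx, Srpx2, Col4a5, Col4a6, Gpc3, Gpc4 and Itm2a. They were chosen by name, and each was measured over its gene body plus 5 kb on both sides (mm10), so they are 9 of the 1255 protein-coding and long noncoding genes placed on the chromosome. Chromatin bound by LSD1, encoded by Kdm1a, was pulled down and sequenced from 3 kinds of mouse cells, and reads were listed at positions where a variant base was called against the B6 base. MidK denotes mouse embryonic fibroblasts given the reprogramming vector SeVdp(fKOSMaB) and taken at day 20 with 30 nM Shield1, a small molecule that keeps proteins with a destabilising domain from being degraded. LowK denotes fibroblasts given the same vector and taken at day 20 without Shield1. MEF denotes mouse embryonic fibroblasts at day 0, with no vector named. Each group holds 1 library, so no value has a replicate error, no p-value was computed, and every interval below covers counting error only. The windows of the 9 genes held 796 of 119257 listed single-base sites in MidK, 1515 of 186844 in LowK and 4048 of 411952 in MEF, with 1196 of 203350, 2258 of 295254 and 8792 of 883097 reads.

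Without an input library, the values below describe coverage by LSD1 reads and cannot be read as enrichment. The libraries are bulk chromatin, so a change in the mix of cells and a change of LSD1 within cells cannot be told apart. The comparisons of MidK and of LowK with MEF share the 1 MEF library. Cell identity could not be checked against marker expression, since only chromatin reads of chromosome X were used. The strain that carries the variant base is not given in the sources used here. The B6 base matched the GRCm38.p6 reference at 1611 of 1611 listed positions in annotated promoters of the chromosome.

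LSD1 removes methyl groups from histone H3 and works with corepressor complexes at promoters and enhancers. Fibroblasts secrete and anchor much of the matrix around them. Type IV collagen chains form the network of basement membranes, glypicans carry heparan sulfate on the cell surface and tune growth factor signals, and small proteoglycans such as biglycan bind collagen fibres. TIMP proteins inhibit the metalloproteinases that break this matrix down.

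Promoter sequences of 4 of these genes are printed first, a shorter stretch than the 1 kb on each side of the start that is measured below. Each is the 300 bases from 250 before to 50 after the RefSeq start in GRCm38.p6, read 5′ to 3′ on the gene's strand, and capitals mark the positions listed in at least 1 library. Gpc4 (X:52164874-52165173, minus strand), Srpx (X:10117591-10117890, minus strand) and Timp1 (X:20869916-20870215, plus strand) had more start reads in LowK than the other genes, and Bgn (X:73483351-73483650, plus strand) is a gene whose start was not called there.
Gpc4: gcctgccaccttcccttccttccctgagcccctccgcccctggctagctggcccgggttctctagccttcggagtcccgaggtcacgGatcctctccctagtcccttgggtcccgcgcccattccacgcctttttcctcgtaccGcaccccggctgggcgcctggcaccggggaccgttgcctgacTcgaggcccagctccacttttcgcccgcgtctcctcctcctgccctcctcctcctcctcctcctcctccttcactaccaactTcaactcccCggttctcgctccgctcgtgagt
Srpx: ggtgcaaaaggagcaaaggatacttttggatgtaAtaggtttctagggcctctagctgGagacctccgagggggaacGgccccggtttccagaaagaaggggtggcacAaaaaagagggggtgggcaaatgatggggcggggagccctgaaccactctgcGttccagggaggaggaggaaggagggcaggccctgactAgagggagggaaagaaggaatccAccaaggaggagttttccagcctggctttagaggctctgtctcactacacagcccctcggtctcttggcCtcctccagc
Timp1: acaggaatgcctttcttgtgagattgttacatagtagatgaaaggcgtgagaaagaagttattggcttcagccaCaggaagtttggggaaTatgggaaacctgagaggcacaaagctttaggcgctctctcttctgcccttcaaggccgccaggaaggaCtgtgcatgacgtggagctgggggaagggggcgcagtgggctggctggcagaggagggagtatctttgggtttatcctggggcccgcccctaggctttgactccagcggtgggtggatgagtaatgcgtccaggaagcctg
Bgn: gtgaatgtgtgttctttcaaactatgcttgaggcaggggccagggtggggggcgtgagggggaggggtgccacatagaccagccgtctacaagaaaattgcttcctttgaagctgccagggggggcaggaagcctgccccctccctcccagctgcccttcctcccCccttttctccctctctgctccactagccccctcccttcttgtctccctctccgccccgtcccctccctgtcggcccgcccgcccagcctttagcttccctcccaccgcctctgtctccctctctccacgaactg
In the Gpc4 sequence, with positions counted from 1 at its 5′ end, the substitution T187G was listed in LowK with 11 variant reads and 0 B6 reads, and was not listed in MidK or MEF. G88A had 5 variant reads and 1 B6 read in LowK, against 3 variant reads and 1 B6 read in MEF, and G145C was listed in all 3 libraries with 2 variant reads in MidK, 1 in LowK and 4 in MEF. In the Srpx sequence LowK listed 5 positions, the deepest being G78A with 4 variant reads. MidK listed 3 there, and MEF listed only A199G, with 1 variant read. In the Timp1 sequence C75T was listed with 3 variant reads in LowK and 2 in MEF, T91C with 3 in LowK, and C160A with 6 in MEF. A position that a library does not list had no variant call there, and reads with the B6 base alone are not recorded. The printed stretches held 23 of the 35 LowK reads within 1 kb of the start at Gpc4, but 11 of 49 at Srpx and 6 of 30 at Timp1. In the Timp1 stretch MEF had 8 reads.

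Pooled over the 9 gene starts, LSD1 reads stood above the rest of the same windows in LowK out to 1 kb. In MidK they did so within 250 and 500 bp but not detectably over 1 kb, and in MEF at none of the 3 widths measured. These measures were chosen after seeing the data. Within 1 kb the start regions held 1.21 reads per kb in MidK (21 reads), 9.91 in LowK (172 reads) and 6.17 in MEF (107 reads), against 1.01, 1.78 and 7.43 reads per kb elsewhere in the windows. The ratio of start to rest was thus 1.20 in MidK (exact 95% interval 0.742 to 1.85), 5.55 in LowK (4.73 to 6.49) and 0.830 in MEF (0.679 to 1.004). All 21 MidK reads lay within 500 bp. At that width the ratio was 2.34 in MidK (1.44 to 3.59), 6.24 in LowK (5.07 to 7.61) and 0.762 in MEF (0.567 to 1.003). Within 250 bp it was 2.88 in MidK (13 reads, 1.53 to 4.94), 7.77 in LowK (65 reads, 5.97 to 9.94) and 0.807 in MEF (27 reads, 0.532 to 1.18). Because both parts come from the same library, these ratios do not depend on how libraries are scaled. They can still follow the density of variants at starts and elsewhere, which was not checked. The pooled values rest on some of the genes. Of the 65 LowK reads within 250 bp, 24 were at Timp1, 23 at Gpc4 and 11 at Srpx, while Gpc3, Srpx2, Bgn and Col4a6 had 0. Over all genes of the chromosome the ratio within 1 kb was 1.85 in MidK, 2.72 in LowK and 1.18 in MEF, and within 250 bp it was 2.35, 3.93 and 1.31. Thinned to 1 site per 300 bp, with the reads of each kept, the ratio at the 9 genes was 0.897 in MidK, 3.90 in LowK (2.98 to 5.02) and 1.22 in MEF. With each such site counted once it was 1.01, 1.88 (1.17 to 2.87) and 1.14, from 7 MidK, 22 LowK and 28 MEF start sites.

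**Figure D1:**
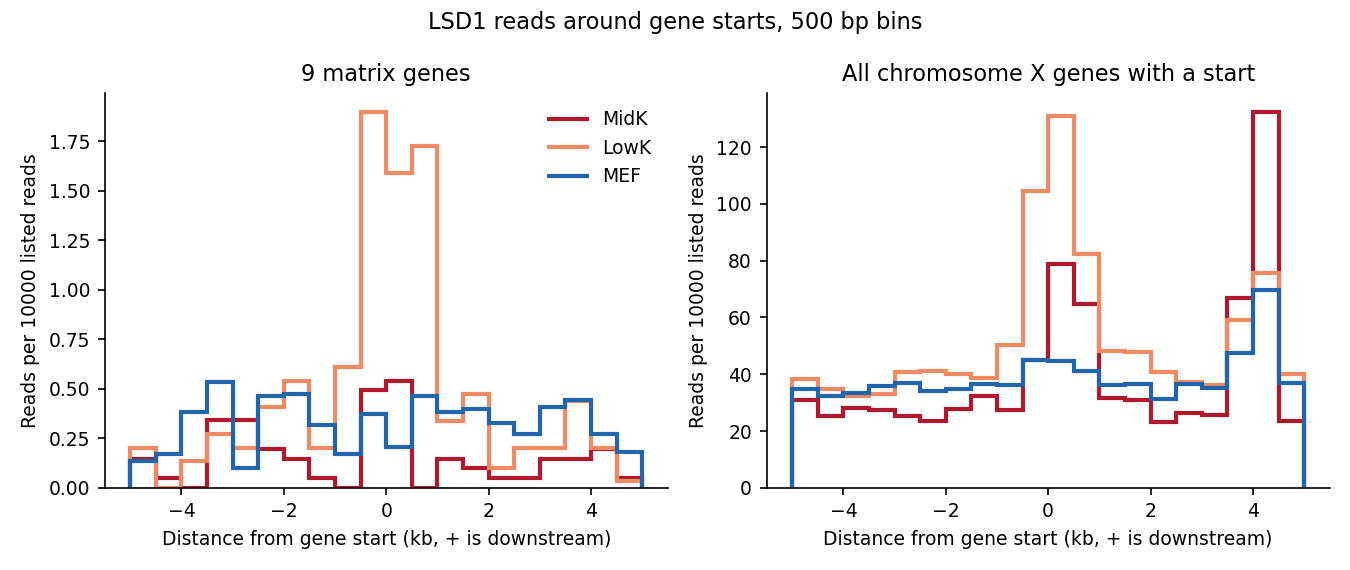
LSD1 reads per 10000 listed reads (y axis) in bins of 500 bp from 5 kb before to 5 kb after the gene start (x axis), summed over the 9 matrix genes (left) and over all 1046 chromosome X genes with an annotated start (right), for the MidK, LowK and MEF libraries. At the matrix genes LowK holds 56, 47 and 51 reads in the 3 bins from 0.5 kb before to 1 kb after the start and at most 18 in any other bin. In the right panel the bin at 4 to 4.5 kb is led by Cldn34d, named after its values were seen, with 80.8% of its MidK, 49.9% of its LowK and 46.9% of its MEF reads.

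Set between libraries, the 9 start regions together held 1.03 reads per 10000 listed reads in MidK, 5.83 in LowK and 1.21 in MEF. Ratios between libraries are given relative to the median gene window of the chromosome, which puts that gene at 1. On this scale LowK over MEF was 4.50 (3.51 to 5.78), MidK over MEF 1.15 (0.686 to 1.85) and MidK over LowK 0.261 (0.158 to 0.412). Within 250 bp MidK over MEF was 1.50 on the log2 scale (0.42 to 2.50), so this value depends on the width. The start regions of all other genes had 1.77 in MidK over MEF, 2.01 in LowK over MEF and 0.895 in MidK over LowK. With 1 site per 300 bp, LowK over MEF at the 9 genes was 1.33 on the log2 scale with all its reads (0.81 to 1.86) and 0.54 with each site counted once, where the interval of -0.34 to 1.40 holds 0, against 2.17 over all sites. The rest of the 9 windows stood at 0.672 in LowK over MEF (0.640 to 0.705), against 0.881 in the windows of all genes outside start regions.

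A start region was called between 2 libraries when the ratio was at least 2-fold, the exact Poisson intervals did not overlap and either library held 10 or more reads. In LowK over MEF, 5 of the 8 genes with enough reads were called higher and 0 lower, where 33.8% of 669 start regions of the chromosome were called higher and 5.53% lower. The 5 were Srpx, Gpc4, Timp1, Gpc3 and Srpx2, and Srpx2 had enough reads through LowK alone. In MidK over MEF 0 of 7 were called, where 15.3% of 608 were called higher and 3.45% lower. All 7 had enough reads through MEF alone. At the MEF counts of these genes even 0 reads in MidK or LowK would not have been called lower. The absence of lower calls against MEF therefore carries no information. In MidK over LowK 1 of 5, Srpx, was called lower and 0 higher, where 19.5% and 3.9% of 410 were. All 5 passed the minimum only through LowK. The absence of higher calls there therefore carries no information, and the median of these 5 given next is pushed down. The median ratio over the members tested was 1.04 in MidK over MEF, 4.37 in LowK over MEF and 0.285 in MidK over LowK, against 0.618, 1.78 and 0.440 over all start regions tested. In MidK over MEF the members thus lay above by the median but below when pooled, at 1.15 against 1.77, so no order is given. Without the deepest 1% of sites 4 of 8 members were called higher in LowK over MEF, and Gpc4 was not, where 31.2% of 657 were. Thinned to 1 site per 300 bp, 4 members could be tested and 1, Gpc4, was called higher, where 16.8% of 244 were.

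Srpx, a secreted protein gene with sushi repeats, had 3 start reads in MidK, 49 in LowK and 17 in MEF. The LowK reads lay at 20 sites, which thin to 5 sites at least 300 bp apart. LowK over MEF was 8.07 (4.56 to 14.9) and MidK over LowK 0.131 (0.0261 to 0.406). Thinned to 1 site per 300 bp with all its reads, LowK over MEF at Srpx was 3.03 (1.14 to 8.26). MidK over LowK was then 0.166 (0.00385 to 1.14), and neither was called. The rest of its window had 0.713 in LowK over MEF (0.617 to 0.822), so the start region and the rest of the gene differed from MEF in opposite directions. The long noncoding gene Gm33844 starts just beside Srpx on the other strand, and reads there cannot be given to one or the other.

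Gpc4, a glypican gene, had 7 start reads in MidK, 35 in LowK and 14 in MEF, and LowK over MEF was 6.996 (3.67 to 14.1). The LowK reads lay at 7 sites, and without the deepest 1% of sites 15 of them remained, with a ratio of 2.99 (1.35 to 6.69). MidK was also above the rest of its own window here, at a ratio of 3.91 (1.54 to 8.34), although MidK over MEF, 2.94 (1.003 to 7.78), was not called. Gpc3, the neighbouring glypican gene, had 4, 18 and 16 start reads, and LowK over MEF was 3.15 (1.52 to 6.60). Timp1, the metalloproteinase inhibitor gene, had 4, 30 and 15, and LowK over MEF was 5.60 (2.92 to 11.2), or 4.28 (2.14 to 8.83) without the deepest 1% of sites, from 23 LowK reads. Its whole window lies within that of Syn1, a gene of synaptic vesicles on the other strand, which shares all of its reads. Srpx2, a paralogue of Srpx, had 1, 14 and 4 start reads, and LowK over MEF was 9.79 (3.08 to 40.9). The LowK start sites thin to 2 sites 300 bp apart at Timp1, Gpc3 and Srpx2 and to 3 at Gpc4. MEF had 3 such sites at each. Thinned with all reads of each site, LowK over MEF was 4.125 (1.69 to 10.7) at Gpc4 and 4.125 (1.36 to 13.8) at Timp1. It was 1.80 (0.629 to 4.91) at Gpc3 and 3.09 (0.666 to 15.6) at Srpx2. Among these only Gpc4 was called, and Srpx2 had too few reads to be tested.

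The other starts did not meet the rule. Itm2a, a membrane protein gene with a BRICHOS domain, had 0 start reads in MidK, 8 in LowK and 5 in MEF, under the minimum of 10. Those 8 reads were 66.7% of all LowK reads in its window, against 4.63% in MEF. Col4a5 had 0, 7 and 10 and Col4a6 0, 8 and 11, with LowK over MEF of 1.96 (0.633 to 5.70) and 2.04 (0.711 to 5.55). The starts of this head-to-head pair of collagen genes lie close together and their start regions overlap. A count of 0 in MidK has an exact Poisson upper limit of 0.181 reads per 10000 listed reads. Bgn, the biglycan gene, had 2, 3 and 15 start reads and a LowK over MEF of 0.560 (0.104 to 1.98), the one ratio below 1.

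**Figure D2:**
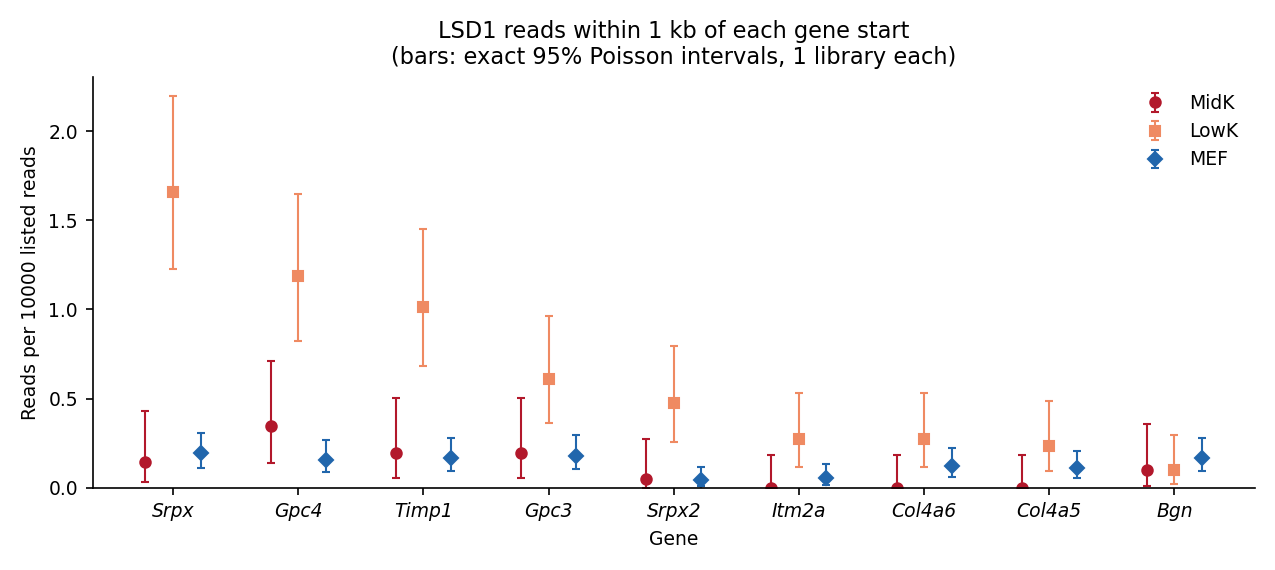
LSD1 reads within 1 kb of the start of each gene, per 10000 listed reads of the library (y axis), in MidK (circles), LowK (squares) and MEF (diamonds), with exact 95% Poisson intervals and 1 library per group. The LowK interval lies above the MEF interval for Srpx, Gpc4, Timp1, Gpc3 and Srpx2 and overlaps it for the other 4 genes.

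The start sequences of the 9 genes varied in composition. GC content ranged from 43.3% at Srpx2 to 70.7% at Gpc3, with a median of 57.7%, against 50.7% over all 1046 promoters of the chromosome in the table. CpG pairs numbered 30 at Gpc3 and 22 at Gpc4, and 2 to 11 at the other 7 genes. The GC box GGGCGG, searched on both strands, was found in 8 of the 9 sequences and in 33.6% of all promoters. Srpx2 lacked it and was the one sequence with the AP-1 type motif TGANTCA, found in 7.65% of all promoters. TATAAA was found in 0 of the 9 and in 14.8% of all.

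Over the whole windows, Itm2a and Srpx were the members called against MEF. Windows were called by the same rule, with a minimum of 30 reads in either library. In MidK over MEF 0 of 9 members were called higher and 2 lower, where 9.45% and 9.82% of 1079 genes were (19.3% in either direction). Scaled by library totals, 48 of the 1079 genes were called higher and 230 lower, against 102 and 106 here. In LowK over MEF 0 were called higher and 1 lower, where 7.23% and 6.3% of 1079 were (13.5% in either direction). The median log2 ratio of the 9 was -0.44 in MidK over MEF and -0.38 in LowK over MEF, with the median of all tested genes at 0 by construction. Library totals in place of the median gene add -0.44 to every MidK over MEF log2 ratio and 0.10 to every LowK over MEF ratio.

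Itm2a (X:107397195-107403360) was called lower in both reprogrammed libraries, having passed the minimum of 30 reads only through MEF. Its window of 16.2 kb held 1 read in MidK, 12 in LowK and 108 in MEF. The ratio was 0.0544 in MidK over MEF (0.00136 to 0.310) and 0.311 in LowK over MEF (0.156 to 0.566). The 500 kb on each side had 1.41 and 0.892, so the window lay below its surroundings in both. Thinned to 1 site per 300 bp, the MidK call was kept, at -3.42 on the log2 scale, and the LowK value of -0.96 was not called. On the gene body alone the LowK call was lost as well. With each site counted once Itm2a had too few sites to be tested.

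Srpx (X:10037977-10117640) fell in MidK. Its window of 89.7 kb held 74 reads in MidK, 292 in LowK and 970 in MEF, and at 10.8 reads per kb it ranked 47th of 1255 genes in MEF by read density, which also follows the density of variants. The ratio was 0.448 in MidK over MEF (0.349 to 0.568) and 0.842 in LowK over MEF (0.736 to 0.961), against 1.09 and 0.822 for the 500 kb on each side. Thinned to 1 site per 300 bp, its MidK over MEF log2 ratio was -0.72, against -1.16 over all sites, and was not called.

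The glypican genes did not meet the rule. Gpc3 (X:52272426-52613974), the longest of the 9 at 342 kb, held 271 reads in MidK, 533 in LowK and 2440 in MEF. Its ratios were 0.652 in MidK over MEF (0.573 to 0.740) and 0.611 in LowK over MEF (0.556 to 0.672), both below the 1.15 and 0.908 of its surroundings. With library totals MidK over MEF reached -1.05 on the log2 scale and was called lower. Gpc4 (X:52051007-52164923) held 116, 296 and 974 reads, with ratios of 0.700 in MidK over MEF (0.572 to 0.849) and 0.850 in LowK over MEF (0.744 to 0.970). Its LowK value did not stand apart from its surroundings, at 0.841.

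Neither collagen gene met the rule, and their MidK values differed. Col4a5 (X:141475370-141689236), the chain altered in Alport syndrome, held 314 reads in MidK, 342 in LowK and 1389 in MEF. Its ratio was 1.33 in MidK over MEF (1.17 to 1.50), beside surroundings at 1.49, and 0.689 in LowK over MEF (0.610 to 0.776). With library totals the MidK value was -0.03 on the log2 scale, so no direction is given for it. Col4a6 (X:141165403-141474095), the divergently transcribed partner chain, held 344, 606 and 2450 reads, with ratios of 0.825 (0.735 to 0.924) and 0.692 (0.632 to 0.757). In LowK both genes had ratios of about the same size, and both lay below their surroundings at 1.31 and 1.30. The windows of the 2 genes share 2 reads in MidK, 15 in LowK and 41 in MEF.

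The secreted proteins with short genes had few reads. Timp1 (X:20870166-20874737) held 28 reads in MidK, 63 in LowK and 106 in MEF, with ratios of 1.55 in MidK over MEF (0.985 to 2.37) and 1.66 in LowK over MEF (1.20 to 2.29). In LowK 47.6% of these reads were start reads, and the rest of the window had 1.01 (0.660 to 1.53). On the gene body alone Timp1 was called higher in LowK over MEF, at 1.21 on the log2 scale, and had -0.53 in MidK over MEF, from 5 MidK reads. With a reliability of at least 20 it was called higher in both, at 1.53 in MidK over MEF and 1.41 in LowK over MEF, where 134 of 1010 and 156 of 1013 genes were. Bgn (X:73483601-73495936) held 20, 64 and 159 reads, with ratios of 0.739 (0.439 to 1.18) and 1.13 (0.829 to 1.52). Srpx2 (X:133908416-133932448) held 30, 65 and 237, with 0.743 (0.491 to 1.09) and 0.767 (0.574 to 1.01).

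**Figure D3:**
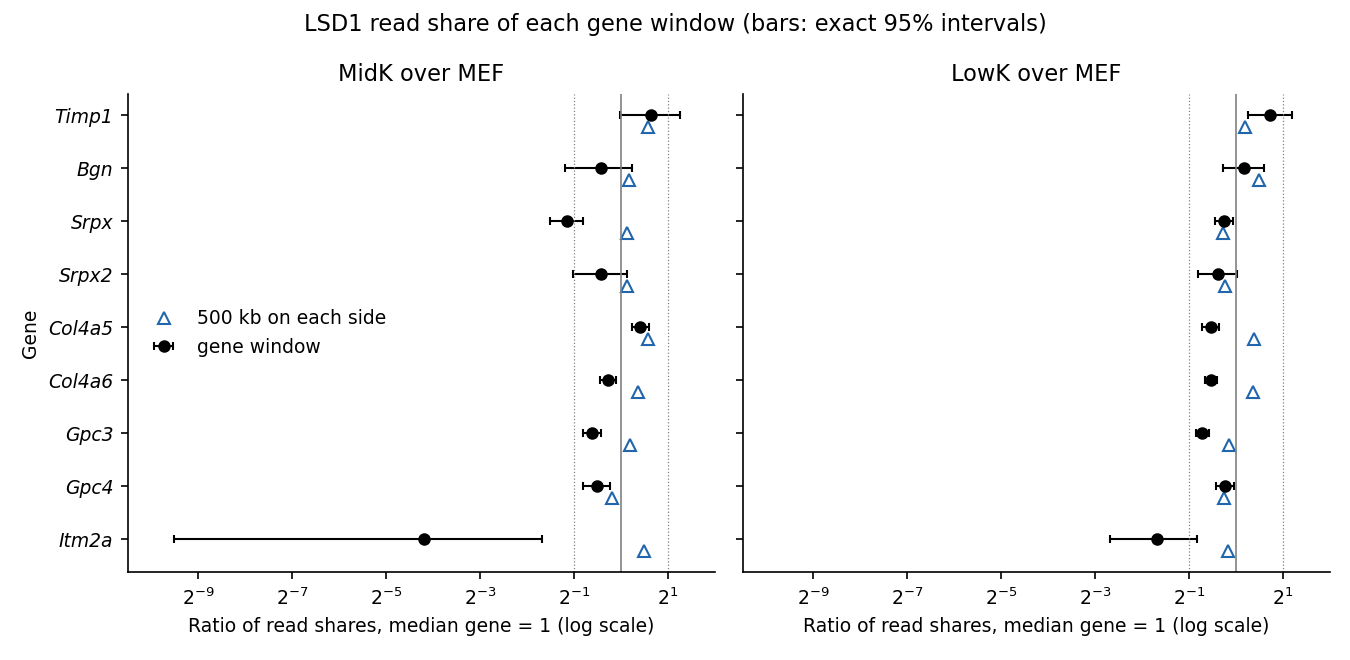
Ratio of read shares between libraries for each gene window (dots, with exact 95% intervals), MidK over MEF on the left and LowK over MEF on the right, on a log axis on which the median gene of the chromosome is 1; open triangles give the 500 kb on each side. Itm2a lies at 0.0544 and 0.311, and Srpx lies at 0.448 in MidK over MEF beside a surrounding ratio of 1.09.

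Between MidK and LowK the labelled difference is Shield1. With 1 library each, an effect of Shield1 and a difference between libraries cannot be told apart. In that comparison 0 of 8 testable members were called in either direction, where 8.73% of 905 genes were higher and 11.9% lower (20.7% in either direction). Srpx had a ratio of 0.542 (0.414 to 0.701) and Col4a5 one of 1.96 (1.68 to 2.29), each just short of 2-fold. The surroundings of Srpx had 1.35 and those of Col4a5 1.16. The ratios of Timp1, Bgn, Srpx2, Col4a6, Gpc3 and Gpc4 lay between 0.668 and 1.21. Itm2a, with 1 and 12 reads, was under the minimum. Pooled over the 9 windows the ratio was 1.13 (1.05 to 1.22), and library totals turned it round, to -0.38 on the log2 scale, so it gives no direction. With library totals Bgn and Srpx were called lower, where 264 of 905 genes were called lower and 24 higher. On the gene body alone Timp1 and Srpx were called lower, where 87 of 606 genes were. With a reliability of at least 20 Col4a5 was called higher and Srpx lower, where 93 and 124 of 627 genes were.

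Along the 5 genes longer than 50 kb, each divided into 10 equal bins from start to end, reads lay throughout the body, except for 0 MidK reads in bin 10 of Srpx and bin 3 of Gpc4, and Srpx in LowK had the highest share in a first bin. In Srpx, bin 1 held 5.26% of the gene's reads in MidK, 21.5% in LowK and 7.26% in MEF, and its LowK over MEF ratio was 2.32 (1.58 to 3.39), with 0.409 to 1.51 in the other 9 bins. In MidK, 26.3% of the Srpx reads lay in bin 9, from 15 reads. In Gpc3 the middle bins 5 and 6 had the smallest ratios in both comparisons, 0.335 and 0.341 in MidK over MEF and 0.366 and 0.347 in LowK over MEF, while bin 10 had 1.19 (0.770 to 1.79) and 1.17 (0.854 to 1.60). In Col4a6, bin 10 held 4.97% of the reads in MidK, 15.8% in LowK and 15.2% in MEF. The long noncoding gene Gm39539 lies there. In Col4a5, bins 7 and 10 had the highest MidK over MEF ratios, 2.62 (1.73 to 3.90) and 2.66 (1.92 to 3.66), and bin 3 the smallest at 0.404 (0.180 to 0.790), so the MidK value of this gene was uneven along its length. Bins of one gene share a library and are not replicates.

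**Figure D4:**
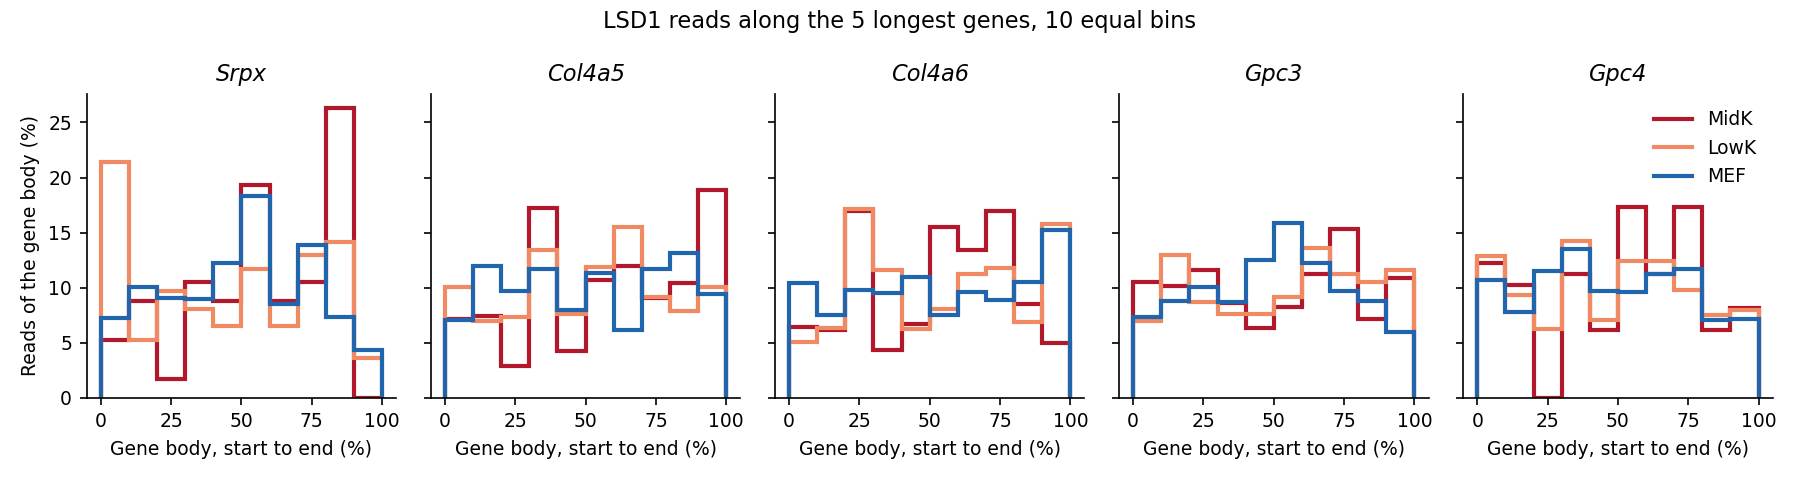
Percent of each gene body's reads (y axis) in 10 equal bins from start to end (x axis) for the 5 longest genes, in MidK, LowK and MEF. The first Srpx bin holds 21.5% of its LowK reads, against 5.26% in MidK and 7.26% in MEF, and the LowK lines of the other 4 genes lie between 5.03% and 17.1% in every bin.

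The B6 base was read least often at these genes in LowK, as over the whole chromosome, and the LowK library also had the fewest reads per site, 1.58. Every listed site holds a variant read, so shares of B6 reads are pushed down, and more so where sites hold few reads. Each share is therefore to be read beside that of its own library, and differences between libraries cannot be told apart from depth per site. Of the reads in the 9 windows, the B6 base made up 13.5% in MidK, 6.20% in LowK and 13.3% in MEF. The Clopper-Pearson 95% intervals ran between 11.7% and 15.6% for MidK, between 5.24% and 7.28% for LowK and between 12.6% and 14.1% for MEF. The whole libraries had 18.9%, 9.85% and 14.2%. In MidK the shares of the members differed, and so did their reads per site. The 20 Bgn reads lay at 18 sites, the 30 Srpx2 reads at 26 and the 74 Srpx reads at 65, against 344 reads at 193 sites in Col4a6. At Bgn, Srpx2 and Srpx few reads could therefore hold the B6 base, and the intervals do not allow for this. Col4a6 had the B6 base in 23.5% of 344 MidK reads (19.2% to 28.4%), and Srpx in 4.05% of 74 (0.844% to 11.4%), Gpc3 in 7.75% of 271 (4.86% to 11.6%), and Bgn and Srpx2 in 0 of 20 and 0 of 30. In LowK Gpc3 had the smallest share among genes with over 100 reads, 3.19% of 533 (1.87% to 5.06%), beside 9.85% in the whole library. In MEF Gpc3 had 13.1% of 2440 (11.8% to 14.5%), beside 14.2%. Its reads lay at 387 sites in LowK and 1138 in MEF. In MEF the members lay between 8.49% at Timp1 and 18.2% at Bgn. Near the starts, within 1 kb, B6 reads were 9.52% of 21 in MidK, 12.2% of 172 in LowK (7.72% to 18.1%) and 9.35% of 107 reads from MEF (4.57% to 16.5%). In LowK this lay above the 5.70% of the rest of the windows (4.75% to 6.79%). Over all genes the start regions likewise had 18.6% in LowK, against 9.54% in the rest of the windows. At the 9 genes the LowK start sites were also deeper, with 172 reads at 65 sites, against 2086 at 1450 in the rest.

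Both alleles were weighed where each had 2 or more reads, the depth was 5 to 20 reads, the alleles were not tied and sites lay 300 bp apart. Variant reads outnumbered B6 reads at 3 of 13 such MidK sites, or 23.1% (5.04% to 53.8%). In LowK they did so at 7 of 12, or 58.3% (27.7% to 84.8%), and in MEF at 57 of 120, or 47.5% (38.3% to 56.8%). Over the chromosome these shares were 23.3%, 45.3% and 48.5%. Of the 13 MidK sites 10 lay in Col4a6, where the B6 base had the majority at 8. In MEF the 41 such Col4a6 sites had 24 with a B6 majority and the 30 of Gpc3 had 15. Itm2a had none of these sites in any of the 3 libraries, and too few sites remained per gene in MidK and LowK to compare the other members.

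**Figure D5:**
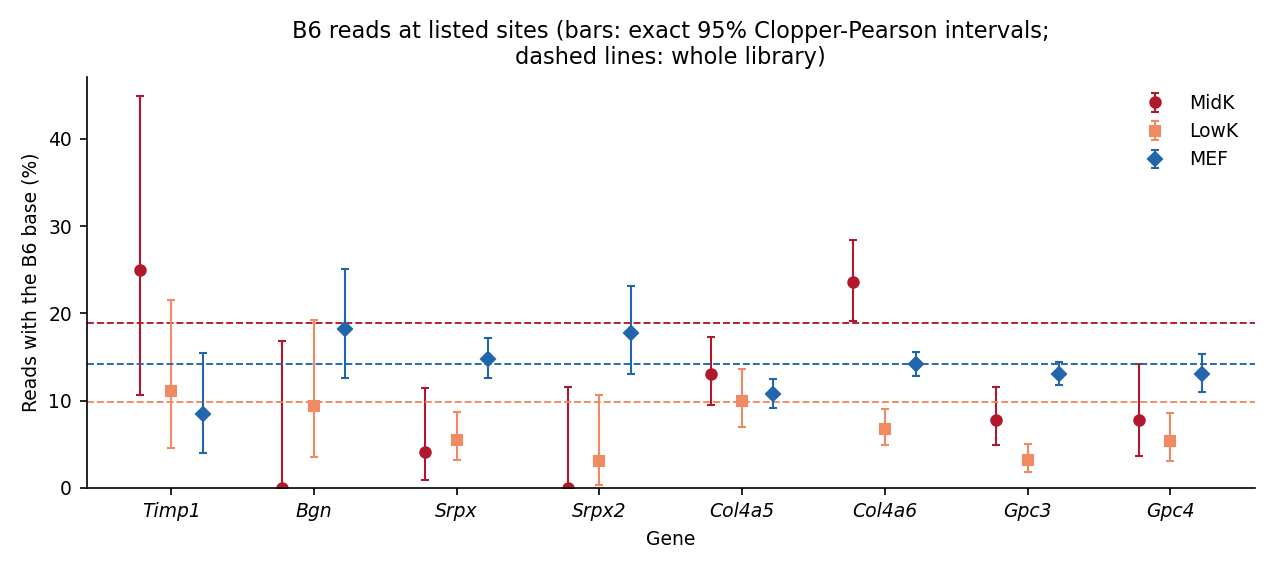
Percent of reads with the B6 base at listed sites (y axis) in the windows of 8 genes, in MidK (circles), LowK (squares) and MEF (diamonds), with exact 95% Clopper-Pearson intervals; dashed lines give each whole library. Itm2a is left out for its 1 MidK read. Col4a6 stands at 23.5% in MidK, 6.77% in LowK and 14.2% in MEF, where the whole libraries stand at 18.9%, 9.85% and 14.2%.

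Most sites of these windows were listed in 1 library only. Of the 796 MidK sites 21.9% were also listed in MEF, and of the 1515 LowK sites 23.9%, against 16.7% and 20.3% over the chromosome. In all, 27 sites were shared by the 3 libraries. With these sites alone no member had enough reads to be tested. Transitions made up 62.8% of the member sites in MidK, 62.4% in LowK and 64.8% in MEF. Insertions, deletions and other longer entries added 53 entries in MidK, 120 in LowK and 339 in MEF, with more in Gpc3 than in any other member, at 18, 33 and 116.

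A list of 13 other X-linked genes holds secreted factors, matrix proteins, enzymes that modify or break down heparan and chondroitin sulfate, and Porcn, whose product acylates Wnt proteins. In MidK over MEF 1 of 13 was called lower and 0 higher, where 19.3% of all genes were called in either direction, with a median log2 ratio of -0.34. The called gene was Amelx, which encodes the enamel protein amelogenin, with 8 reads in MidK and 121 in MEF (ratio 0.388, 0.164 to 0.790), so it passed the minimum only through MEF. In LowK over MEF 0 of 13 were called, where 13.5% of all genes were, with a median of -0.10. In MidK over LowK Ids, the iduronate sulfatase gene, was called lower, with 41 reads in MidK and 201 in LowK (0.436, 0.304 to 0.613), 1 of the 12 testable, where 20.7% of all genes were called, with a median of -0.24. The median of the 8 testable members there was -0.05.

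The genes most like the called members over the 3 libraries were taken by the distance between their log2 ratios in MidK over MEF and LowK over MEF. For Srpx these were Frmd7 (distance 0.01), Gm6660 (0.01) and Gm38595 (0.07). Frmd7 held 36 reads in MidK, 142 in LowK and 470 in MEF. For Itm2a, whose MidK ratio rests on 1 read, the nearest were Ssxb7, of a multicopy family, at 1.22, Gm46675 at 1.31 and Xlr4d-ps at 1.35, and Ssxb7 held 4 reads in MidK, 31 in LowK and 199 in MEF.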

How the data were processed

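For each listed chromosome X position the authors deposited counts of all reads, B6 reads and variant reads, 1 library per group. The submitters' processing notes name BWA and mm10, and the series' design text names bcftools mpileup for the allele-specific calls; their versions and any filter or removal of duplicates were not stated. A reliability score from the authors accompanies each position and served in 1 alternative. In the MidK file its header carries another prefix than the other columns, so which library it rates is unsure.

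Single-base sites were kept (other entries were 5.56% of the MidK, 6.13% of the LowK and 6.97% of the MEF list). Mean depth was 1.71, 1.58 and 2.14 reads per site. Gene bodies came from RefSeq (GRCm38.p6), and starts, strands and sequences of 1046 genes, all 9 members included, from RefSeq promoters of that build. Ratios carry exact conditional binomial intervals, read shares exact Poisson and percentages Clopper-Pearson intervals, at 95%. All are too narrow, because 1 read can cover several sites. Windows were called at 2-fold with intervals apart and at least 30 reads (10 for start regions), over all genes. The code that calls gene windows was tested on simulated independent Poisson counts, in which no read covers several sites. The code that calls start regions was not tested on them. Named were all members, called genes of the list of 13, overlapping genes and the 3 most alike. Members and lists were chosen with earlier results of these data known. Python 3.11.15, numpy 2.4.6, pandas 2.3.3 and scipy 1.17.1 were used.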

Additional observations from a re-analysis of the deposited data

How the results depend on the processing

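On the log2 scale relative to the median gene, the 9 pooled windows stood at -0.32 (MidK over MEF), -0.48 (LowK over MEF) and 0.18 (MidK over LowK), with 2, 1 and 0 members and 208, 146 and 187 genes called. The pooled start regions had 0.21, 2.17 and -1.94. Library totals gave pooled values of -0.76, -0.38 and -0.38, turning MidK over LowK round, with 2 members and 288 genes called in that comparison. Sites listed in all 3 libraries gave -0.91, -0.76 and -0.36, again turned round, with 0 members called in MidK over MEF, 0 in LowK over MEF, and 5, 3 and 4 genes among the 16 to 18 that could be tested. Thinning to 1 site per 300 bp with all its reads gave pooled values of -0.20 and -0.29 in MidK and LowK over MEF, with 1 and 0 members called, 57, 47 and 43 genes called in the 3 comparisons, and start values of -0.64 and 1.33. Each such site counted once gave -0.16, -0.16 and -0.0045, the last turned round, with 0 and 0 members called against MEF, 0, 1 and 2 genes called, and start values of 0.54 (LowK over MEF) and -0.89 (MidK over LowK). The gene body alone gave 138 genes in MidK over MEF and 2 members in MidK over LowK. A reliability of at least 20 gave pooled values of -0.55 (LowK over MEF) and 0.42 (MidK over LowK), 2 members called in each of these, 323 and 281 genes called in MidK and LowK over MEF, a start value of 2.80 (LowK over MEF) and a variant majority at 58.2% of MEF sites. Start values within 250 bp were 1.50 (0.42 to 2.50), 2.75 and -1.23. No other setting gave a MidK over MEF start interval that leaves out 0. Within 2 kb LowK over MEF was 1.32; both widths were chosen after seeing the data. With sites that MEF also lists, 0% of MidK sites had a variant majority, from 1 site. The cause of these differences was not tested.

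Of 206 ratios of single members under an alternative, 144 stayed within the interval of the value reported, 62 left it, and 0 called values changed sign. The called values were only those of Srpx and Itm2a in MidK over MEF and of Itm2a in LowK over MEF. Uncalled values did change sign. In MidK over MEF, Timp1 went from 0.63 to -0.53 on the gene body alone, and Bgn from -0.44 to 0.39 with each site counted once. The LowK over MEF value at the starts was above 0 under each alternative run, but with each site counted once its interval, -0.34 to 1.40, holds 0. Alternatives with 0 reads in a window gave no ratio, and start regions were not run for the gene body alone, for shared sites or for the minimum of 10 reads. No paired analysis was possible because each group holds 1 library. For the same reason no library could be left out. Depth limits Timp1, Bgn, Srpx2 and Itm2a, with 1 to 30 reads each in MidK.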
